A study of Homo sapiens with 12 samples.

Results

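The genes described here are 10 members of the matrix metalloproteinase (MMP) system: the enzymes MMP1, MMP2, MMP3, MMP7, MMP9, MMP10, MMP13 and MMP14, and the tissue inhibitors of metalloproteinases TIMP1 and TIMP2. They were taken by gene name from a table of 58735 genes, and each name matched 1 row. Their RNA was measured in 12 libraries of NCM460 cells, a human cell line that the labels describe as normal colonic epithelium, with 3 libraries in each of 4 groups. The groups were wild-type cells in medium, wild-type cells with TNF-α, wild-type cells with TNF-α and Bufotenidine (the compound named 5-OH-TMT in the study), and cells with HTRA2 knocked down by siRNA and given TNF-α. The labels give neither dose nor time. They name no control siRNA for the TNF-α libraries, and they do not say whether the knockdown libraries carried the same siRNA or 3 different ones, so transfection and loss of HTRA2 cannot be told apart in the knockdown comparison. Nothing says whether the libraries of a group came from separate cultures, so the p-values measure the spread between these libraries, which may be technical.

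MMPs are zinc endopeptidases that cut collagens, laminins, fibronectin and other proteins of the extracellular matrix. Most are secreted as inactive proenzymes and are switched on by removal of a propeptide, while TIMPs bind the active site and block it. In inflamed gut mucosa this balance of enzyme and inhibitor is known for its part in tissue breakdown and repair, and transcription of many MMP genes responds to TNF-α through AP-1 and NF-κB. The measurements here are of RNA and say nothing of secreted or active enzyme.

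Reads on genes numbered 31008429 to 37624399 per library, mitochondrial transcripts held 2.95% to 4.68% of them, with the lowest share in replicate 2 of the knockdown, and no pair of libraries within a group was identical (chi-squared per degree of freedom 7.35 to 45.4 over 12 pairs). The highest values, 35.0 and 45.4, belonged to the pairs with replicate 2 of the knockdown, while replicates 1 and 3 of that group gave the lowest. The labelled cell type was checked against marker genes. KRT8 and KRT18, keratins of simple epithelium, stood at 887 to 1315 and 972 to 1298 FPKM (fragments scaled to gene length and library depth). Of the other epithelial markers examined, EPCAM and CDH1 were at 58.6 to 84.9 and 53.3 to 88.4 FPKM, but the keratin KRT19 was only at 1.913 to 4.355 FPKM. None of the 8 colon epithelium markers examined had more than 2 reads in any library, and CDX2, LGR5, CA1 and SLC26A3 had 0. The libraries are therefore described as NCM460 cells and not as colonocytes. HTRA2, the targeted protease gene, was at 7.44, 7.18 and 7.22 FPKM in the knockdown libraries and at 15.4, 14.0 and 14.2 FPKM in the TNF-α libraries, a fall of 0.98 ± 0.09 (SE) on the log2 scale (limma, adjusted p = 2.77e-05). In medium and with 5-OH-TMT it lay between 13.3 and 17.2 FPKM.

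Promoter sequence was at hand for 4 members, MMP7, MMP10, MMP14 and TIMP1, from RefSeq on GRCh38.p14. They are shown because they place 2 members that rose in the knockdown (MMP14 and TIMP1) beside 2 that were near the limit of detection in most libraries (MMP7 and MMP10). Each run covers 250 bases before to 50 bases after the annotated start, 5′ to 3′ on the gene's strand, and capitals mark matches, on either strand, to motifs often named for MMP promoters: AP-1 (TGANTCA, and the variant TGAGTAA), the TATA box (TATAAA), the GC box (GGGCGG), ETS factors (AGGAAG), TCF (CTTTGA) and the NF-κB consensus.
MMP7 (chr11:102530698-102530997, minus strand): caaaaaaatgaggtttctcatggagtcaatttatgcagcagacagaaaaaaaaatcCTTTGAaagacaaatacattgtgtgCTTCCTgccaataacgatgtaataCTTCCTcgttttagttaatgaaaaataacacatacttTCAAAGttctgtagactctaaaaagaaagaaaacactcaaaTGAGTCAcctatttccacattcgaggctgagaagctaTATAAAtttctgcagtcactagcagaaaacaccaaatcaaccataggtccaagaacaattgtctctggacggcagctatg
MMP10 (chr11:102780579-102780878, minus strand): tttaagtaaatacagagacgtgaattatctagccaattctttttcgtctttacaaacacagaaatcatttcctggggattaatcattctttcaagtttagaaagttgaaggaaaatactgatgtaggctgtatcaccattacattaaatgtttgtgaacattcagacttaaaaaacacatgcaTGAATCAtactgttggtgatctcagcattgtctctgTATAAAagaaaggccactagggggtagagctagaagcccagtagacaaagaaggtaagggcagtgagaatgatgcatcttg
MMP14 (chr14:22836335-22836634, plus strand): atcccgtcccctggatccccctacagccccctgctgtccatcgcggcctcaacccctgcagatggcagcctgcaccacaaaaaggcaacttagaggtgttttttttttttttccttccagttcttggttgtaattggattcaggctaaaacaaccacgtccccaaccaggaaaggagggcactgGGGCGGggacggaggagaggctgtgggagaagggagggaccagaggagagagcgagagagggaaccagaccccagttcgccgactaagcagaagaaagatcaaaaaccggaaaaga
TIMP1 (chrX:47582186-47582485, plus strand): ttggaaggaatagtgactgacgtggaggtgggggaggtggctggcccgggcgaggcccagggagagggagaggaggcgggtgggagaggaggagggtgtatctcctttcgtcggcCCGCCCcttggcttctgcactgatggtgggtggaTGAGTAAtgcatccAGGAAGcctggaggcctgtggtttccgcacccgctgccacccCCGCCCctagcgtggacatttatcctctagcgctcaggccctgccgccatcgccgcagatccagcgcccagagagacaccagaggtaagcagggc
MMP7 and MMP10 each held 1 AP-1 match at position -67 from the start and 1 TATA match, at -30 and -31. MMP7 also held 2 TCF and 2 ETS matches. MMP14 held 1 GC box at -66 and no other match, and TIMP1 held 2 GC boxes, 1 ETS match and the AP-1 variant at -101. None of the 4 windows matched the NF-κB consensus. Of 35116 promoter windows of this length, 7.71% held TGANTCA, 2.57% TGAGTAA, 11.5% TATAAA, 45% GGGCGG, 33.6% AGGAAG, 12.9% CTTTGA and 11.3% the NF-κB consensus. These matches describe letters and not bound sites.

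The members spanned more than 3 orders of magnitude in level per length. Ranked by mean FPKM over the 12 libraries, TIMP1 (116) came first, followed by MMP14 (76.0), TIMP2 (31.5), MMP2 (8.84), MMP9 (1.86), MMP13 (1.53), MMP1 (1.02), MMP7 (0.0633), MMP3 (0.0533) and MMP10 (0.0366). In every group the libraries of TIMP1, MMP14, TIMP2 and MMP2 did not overlap with those of the next gene down. This order pools the groups and did not hold in each of them. In medium MMP9 (0.0267 to 0.183 FPKM) was wholly below MMP13 (0.616 to 1.18) and MMP1 (0.855 to 0.917), and in the knockdown MMP9 and MMP13 overlapped, with the higher mean for MMP13 (2.80 against 2.22). MMP13 and MMP1 overlapped in medium and with TNF-α, and the last 3 genes overlapped each other in every group. The inhibitors and the membrane enzyme were thus the abundant transcripts, and the secreted collagenases and stromelysins were scarce or near 0. MMP3, MMP7 and MMP10 had a mean under the filter of 0.1 FPKM, so 7 of the 10 members entered the main fit. MMP9 passed the filter only through the groups with TNF-α, since its mean in medium was 0.0824 FPKM.

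**Figure D1:**
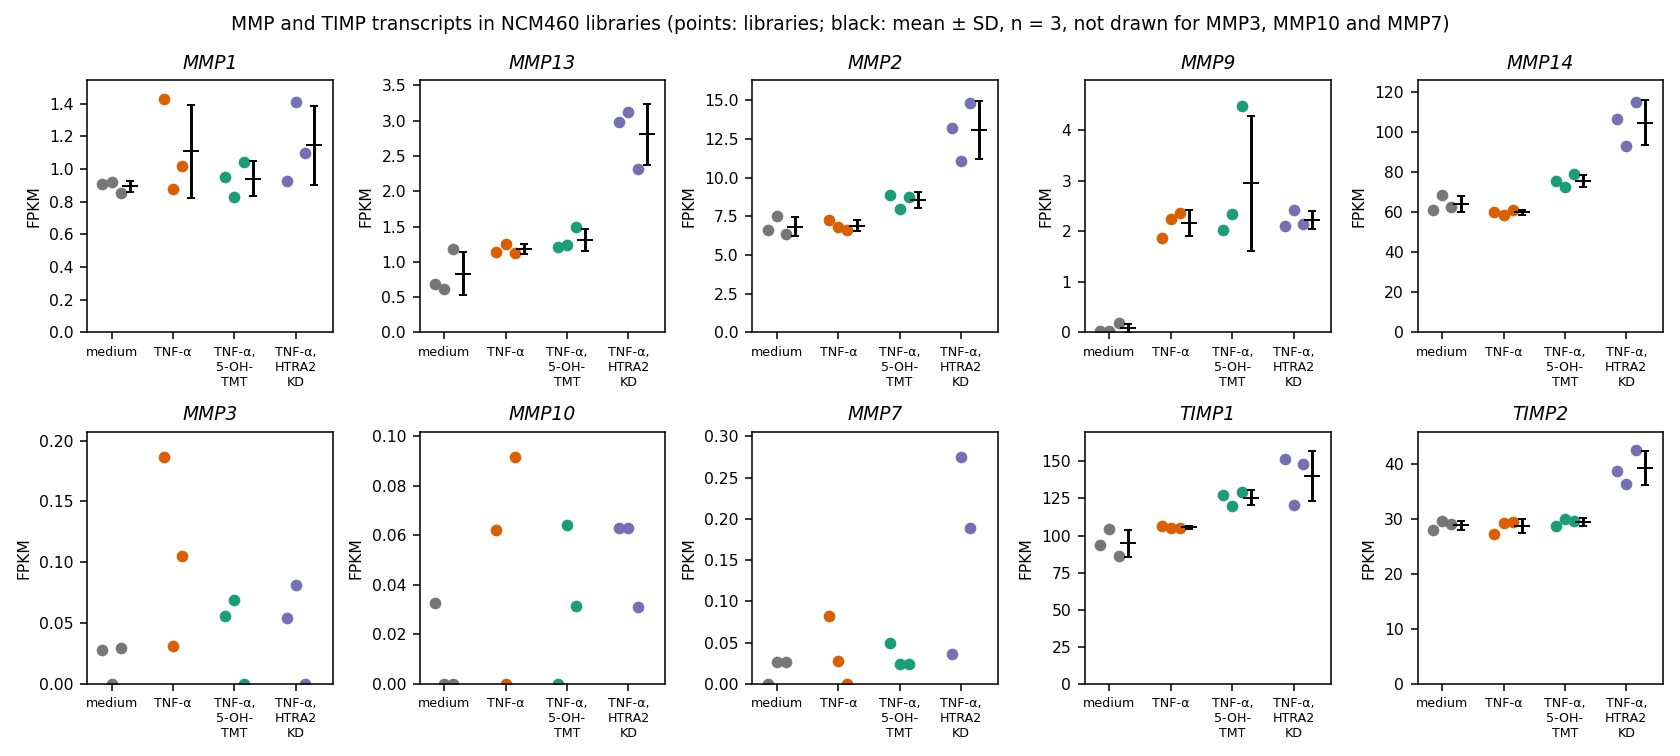
FPKM of the 10 members in each of the 12 libraries, with 1 panel per gene and its own vertical axis from 0; black bars are the mean ± SD of 3 libraries and are not drawn for MMP3, MMP10 and MMP7. MMP9 is between 0.0267 and 0.183 FPKM in medium and at or above 1.88 FPKM in every library with TNF-α, while MMP14, MMP2, MMP13 and TIMP2 stand highest in the knockdown (KD).

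The first comparison asks what TNF-α did to these transcripts. MMP9 rose and was the only member to pass the test. MMP9 (ENSG00000100985, chromosome 20 from 46008908 to 46016561, plus strand, hg38) encodes gelatinase B, which cuts denatured collagen and type IV collagen of basement membranes. It was at 0.0371, 0.0267 and 0.183 FPKM in the medium libraries, and at 1.88, 2.25 and 2.36 FPKM with TNF-α. The ranges were far apart, although replicate 3 in medium stood above its companions. In reads, MMP9 had 3, 2 and 14 in medium and 161, 164 and 206 with TNF-α. The summed reads scaled to depth were 26.4-fold higher with TNF-α (counting interval 16.8 to 44.2 at 95%, which covers counting error only), and 67.4-fold higher without medium replicate 3 (28.7 to 209). The fitted log2 fold change was 3.73 ± 0.32 (SE; 95% interval 3.04 to 4.42; limma, adjusted p = 1.99e-05). Because the medium libraries were near 0, this value followed the pseudocount and ran from 1.55 with a pseudocount of 1 to 5.06 with voom on the reads, with MMP9 called each time. MMP9 shares 430 exon bases, 18.4% of its exons, with SLC12A5-AS1 on the other strand, which reached at most 0.0247 FPKM.

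Of the 7 members tested, 1 was higher and 0 were lower with TNF-α at an adjusted p under 0.05, where 4.1% of the 18079 genes were called in either direction and 3.22% were higher. That member, MMP9, passed the filter only through the groups with TNF-α, so its place among the 7 was not independent of this comparison. A fold of 2 or more together with an unadjusted p no higher than 0.05, the study's rule, was again met by MMP9 alone, against 2.73% of all genes. The median log2 fold change was 0.16 over the 7 members and -0.00 over all genes. The collagenase MMP13 was at 0.693, 0.616 and 1.18 FPKM in medium and at 1.14, 1.26 and 1.13 FPKM with TNF-α. Replicate 3 in medium reached the level of the TNF-α libraries, so the groups overlapped. The difference was 0.50 ± 0.20 on the log2 scale (limma, adjusted p = 0.241), and without that library it was 0.76 (adjusted p = 0.023), which would add MMP13 to the calls.

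The other collagenase measured, MMP1, which cuts fibrillar collagens, was at 0.908, 0.917 and 0.855 FPKM in medium and at 1.43, 0.879 and 1.02 FPKM with TNF-α. One TNF-α library stood above the rest and the groups overlapped (log2 difference 0.26, 95% interval -0.15 to 0.66). MMP14, the membrane-anchored enzyme also called MT1-MMP, was at 60.9, 68.4 and 62.4 FPKM in medium and at 60.0, 58.7 and 61.0 FPKM with TNF-α, a difference of -0.09 (interval -0.26 to 0.08). The gelatinase MMP2 differed by 0.02 (interval -0.21 to 0.25) and TIMP2 by -0.01 (interval -0.15 to 0.13). These intervals leave room for small changes and place larger ones outside them. TIMP1 was at 93.7, 104 and 86.0 FPKM in medium and at 106, 105 and 105 FPKM with TNF-α. Its groups did not overlap, as for MMP9 and for 19.8% of all genes, but the difference of 0.16 ± 0.09 did not pass (limma, adjusted p = 0.474).

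**Figure D2:**
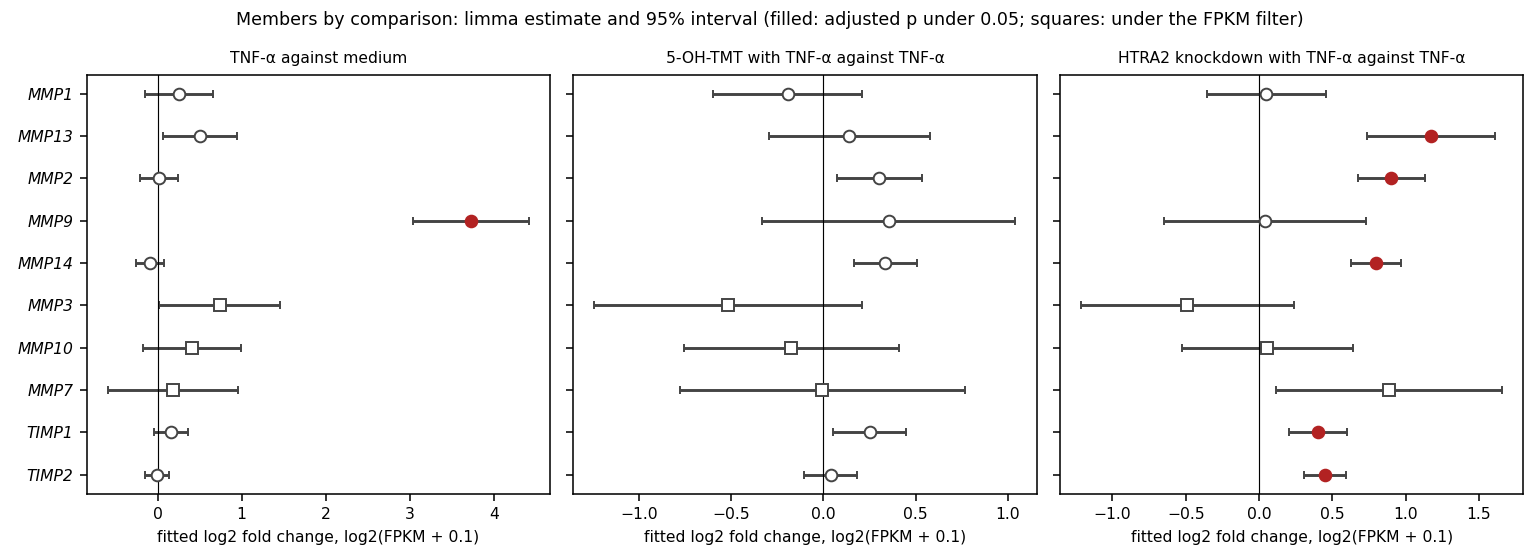
Fitted log2 fold change of log2(FPKM + 0.1) with its 95% interval for the 10 members in the 3 comparisons, each panel with its own horizontal axis. Filled points have an adjusted p under 0.05 (MMP9 with TNF-α, and MMP13, MMP2, MMP14, TIMP1 and TIMP2 in the knockdown), and squares mark the 3 members under the filter.

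The second comparison asks whether 5-OH-TMT changed these transcripts in cells given TNF-α. No member passed the test. By limma 0 of 7 members had an adjusted p under 0.05, where 7 genes or 0.0387% of all were called in either direction (0.0332% higher). An unadjusted p under 0.05 was reached by 3 members (MMP14, MMP2 and TIMP1, all with higher means with 5-OH-TMT). The share of all genes at that unadjusted level was not counted, for this or any other comparison. The same 3 members had groups that did not overlap, which held for 31.8% of all genes. The fold rule called 0 members and 1.5% of all genes. The median log2 fold change was 0.25 over the 7 members and 0.00 over all genes.

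MMP14 was at 75.5, 72.7 and 78.8 FPKM with 5-OH-TMT, above the 58.7 to 61.0 FPKM of the TNF-α libraries. The difference was 0.34 ± 0.08 on the log2 scale (95% interval 0.16 to 0.51; limma, adjusted p = 0.0922). A fit to the 6 libraries of this comparison alone gave an adjusted p of 0.0413, with 5.04% of all genes called, and voom on the reads gave 0.0422, with 1.31% called, so the call for MMP14 depended on the fit. TIMP1 was at 127, 120 and 130 FPKM with 5-OH-TMT, which is 0.25 ± 0.09 above TNF-α alone (adjusted p = 0.164, and 0.0421 in the fit to 6 libraries). MMP2 was at 8.91, 7.95 and 8.77 FPKM with 5-OH-TMT and at 7.28, 6.81 and 6.61 FPKM without it (0.30 ± 0.11, adjusted p = 0.152). For these 3 genes the fitted folds were 1.19 to 1.26.

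MMP9 was at 2.03, 2.35 and 4.49 FPKM with 5-OH-TMT. Replicate 3 stood apart, and the groups overlapped. The difference of 0.35 (interval -0.33 to 1.04) became 0.02 without that library, so the higher mean rests on it. TIMP2 was at 28.7, 30.0 and 29.7 FPKM against 27.3, 29.3 and 29.5 FPKM, with an interval of the difference from -0.10 to 0.18. MMP13 differed by 0.14 (interval -0.30 to 0.58) and MMP1 by -0.19 (interval -0.60 to 0.21). None of the 3 libraries with 5-OH-TMT had less MMP9 than the lowest TNF-α library.

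The third comparison asks what HTRA2 knockdown changed in cells given TNF-α. It shares the TNF-α libraries with the second, so these comparisons are not independent. The members that rose were the enzymes MMP13, MMP2 and MMP14 and the inhibitors TIMP1 and TIMP2. Of the 7 members tested, 5 were higher and 0 lower at an adjusted p under 0.05. Of all genes, 17.4% were called in either direction and 9.35% were higher. In the fit with a filter of 1 FPKM, which all 7 members passed, 27.9% of 11185 genes were called and 1507 were higher. The same 5 had groups that did not overlap, against 34% of all genes. All 5 were called in each of the 16 alternative settings. The median log2 fold change was 0.45 over the 7 members and -0.00 over all genes. In bulk RNA, more RNA per cell and more cells that make it cannot be told apart.

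MMP14 (ENSG00000157227, chromosome 14 from 22836557 to 22849027, plus strand) activates proMMP2 at the cell surface and also cuts collagen itself. It was at 106, 92.8 and 115 FPKM in the knockdown, against 58.7 to 61.0 FPKM with TNF-α alone. The lowest knockdown library, replicate 2, was still well above the highest TNF-α library. The difference was 0.80 ± 0.08 on the log2 scale (95% interval 0.63 to 0.97; limma, adjusted p = 5.14e-05), a fitted fold of 1.74.

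MMP2 (ENSG00000087245, chromosome 16 from 55389700 to 55506691, plus strand), gelatinase A and the proenzyme that MMP14 activates, was at 13.2, 11.1 and 14.9 FPKM in the knockdown. The TNF-α libraries lay between 6.61 and 7.28 FPKM. The difference was 0.90 ± 0.11 (interval 0.67 to 1.13; limma, adjusted p = 0.000159), a fitted fold of 1.87. MMP13 (ENSG00000137745, chromosome 11 from 102942995 to 102955734, minus strand), collagenase 3, was at 2.97, 3.12 and 2.31 FPKM in the knockdown, from 304, 319 and 239 reads. Its TNF-α libraries lay between 1.13 and 1.26 FPKM, from 111 to 119 reads. The difference was 1.18 ± 0.20 (interval 0.74 to 1.61; limma, adjusted p = 0.00189), a fitted fold of 2.26, and MMP13 was the 1 member that also met the fold rule, against 4.23% of all genes.

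The inhibitors rose by less. TIMP1 (ENSG00000102265, chromosome X from 47582313 to 47586789, plus strand), which inhibits most MMPs and binds proMMP9, was at 151, 121 and 148 FPKM in the knockdown and at 105 to 106 FPKM with TNF-α alone. Replicate 2 was again the lowest of the knockdown. The difference was 0.40 ± 0.09 (interval 0.20 to 0.60; limma, adjusted p = 0.00967), with a lowest adjusted p of 0.00088 (voom) and a highest of 0.049 (without knockdown replicate 1) among the alternatives. TIMP2 (ENSG00000035862, chromosome 17 from 78852977 to 78925387, minus strand), which inhibits MMP14 and also bridges it to proMMP2, was at 38.7, 36.4 and 42.5 FPKM in the knockdown and at 27.3, 29.3 and 29.5 FPKM with TNF-α alone. The difference was 0.45 ± 0.07 (interval 0.30 to 0.59; limma, adjusted p = 0.000721). Of the exon bases of TIMP2, 198 are shared with CEP295NL, which reached at most 0.251 FPKM, and 367 with AC022966.1, which had 0 reads. Overlaps of MMP2 (174 bases, with a gene at 0 reads) and MMP1 (150 bases, with WTAPP1 at no more than 0.0468 FPKM) were similarly small in reads, and MMP14 and MMP13 share no exon bases with another gene.

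MMP9 and MMP1 were the members tested that did not pass in the knockdown. MMP9 was at 2.10, 2.42 and 2.15 FPKM, within 0.04 of the TNF-α mean on the log2 scale (interval -0.65 to 0.73). MMP1 was at 0.929, 1.41 and 1.10 FPKM, with a difference of 0.05 (interval -0.35 to 0.46). The spread of each gene was estimated over all 4 groups, so the interval for MMP9 also carries the spread of its medium and 5-OH-TMT libraries. Set against the 5-OH-TMT libraries in the same fit, a comparison added after the values were seen, the knockdown was higher by 0.60 for MMP2, 0.46 for MMP14, 1.04 for MMP13 and 0.41 for TIMP2 (limma, adjusted p from 0.00209 to 0.0058), while TIMP1 differed by 0.15 (adjusted p = 0.295). In exact permutation tests of 3 libraries against 3, each of the 5 members called in the knockdown had p = 0.1, the smallest that this design can give.

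Within a library, the ratio of MMP to TIMP RNA does not depend on how the library was scaled. These ratios were chosen after the values were seen. MMP14 stood to TIMP2, its partner in the complex that activates proMMP2, at 2.09 ± 0.10 (SD, n = 3) with TNF-α, 2.57 ± 0.13 with 5-OH-TMT added and 2.67 ± 0.10 in the knockdown. Neither of the last groups overlapped with TNF-α alone, whose highest library was at 2.20 (exact two-sided permutation p = 0.1 for each, the smallest possible). MMP2 stood to TIMP2 at 0.241 ± 0.023 with TNF-α and at 0.332 ± 0.024 in the knockdown, again without overlap (exact permutation p = 0.1), and at 0.290 ± 0.023 with 5-OH-TMT added, which overlapped with TNF-α alone (exact permutation p = 0.2). The ratio of MMP14 to TIMP1 compares 2 transcripts and does not stand for inhibition of MMP14 by TIMP1. This ratio was 0.677 ± 0.041 in medium and 0.568 ± 0.010 with TNF-α. It was 0.602 ± 0.0079 when 5-OH-TMT was added and 0.749 ± 0.039 after knockdown, and the TNF-α libraries overlapped with none of the other groups. MMP9 stood to TIMP1 at 0.000256 to 0.00213 in medium and at 0.0177 to 0.0225 with TNF-α, and its ranges with 5-OH-TMT (0.016 to 0.0346) and in the knockdown (0.0139 to 0.02) overlapped with the latter.

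**Figure D3:**
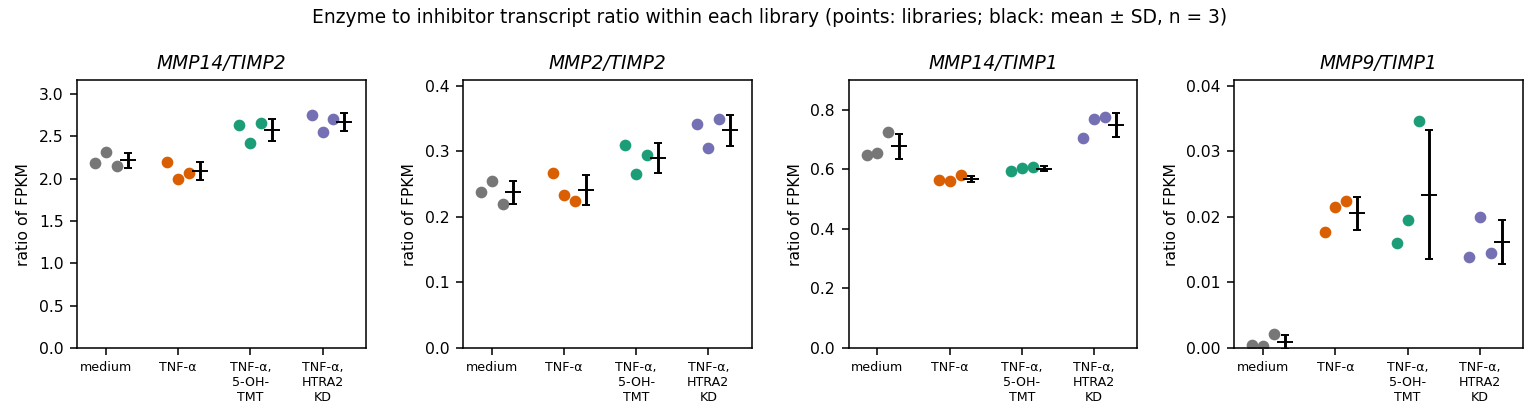
Ratio of MMP to TIMP FPKM within each library for 4 pairs of members, each panel with its own vertical axis from 0. Points are libraries and black bars the mean ± SD of 3. MMP14/TIMP2 is at 2.0 to 2.20 with TNF-α, at 2.42 to 2.66 with 5-OH-TMT added and at 2.55 to 2.75 in the knockdown (KD).

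The stromelysins MMP3 and MMP10, broad enzymes that also activate other proMMPs, and the matrilysin MMP7, an epithelial MMP that cuts many substrates, were at the limit of what this depth can show. In FPKM, 3 reads were worth 0.0346 to 0.0547 for these genes. MMP3 had 2, 0 and 2 reads in medium and 14, 2 and 8 with TNF-α. It had 4, 5 and 0 reads when 5-OH-TMT was added, against 4, 6 and 0 after knockdown. Its summed reads were 5.67-fold higher with TNF-α than in medium (counting interval 1.95 to 22.5), with a TNF-α library at the level of medium. In the fit without a filter the difference was 0.74 ± 0.33 (limma, adjusted p = 0.474). MMP3 and MMP10 share 59 stretches of 50 bases, 2.88% and 3.36% of theirs, so reads there could be split between them. MMP10 had 2, 0 and 0 reads in medium and 4, 0 and 6 with TNF-α. It had 0, 4 and 2 when 5-OH-TMT was added, against 4, 4 and 2 after knockdown. All groups overlapped. The sums of 10 reads with TNF-α and 2 in medium gave a ratio of 4.73 with a counting interval of 1.01 to 44.4. The counts of MMP10 were even in every library, so its reads may not be independent and this interval may be too narrow. The same may hold for the other counting intervals given here.

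MMP7 had 0, 2 and 2 reads in medium and 7, 2 and 0 with TNF-α. It had 4, 2 and 2 when 5-OH-TMT was added, against 3, 23 and 16 after knockdown. Replicates 2 and 3 of the knockdown stood above every other library, while replicate 1 did not. The summed reads were 4.52-fold higher in the knockdown than with TNF-α alone (counting interval 2.17 to 10.6), and the fitted difference was 0.89 ± 0.35 (limma without a filter, adjusted p = 0.172). Without replicate 1 of the knockdown it was 1.31 (adjusted p = 0.0229), so the call depends on that library.

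**Figure D4:**
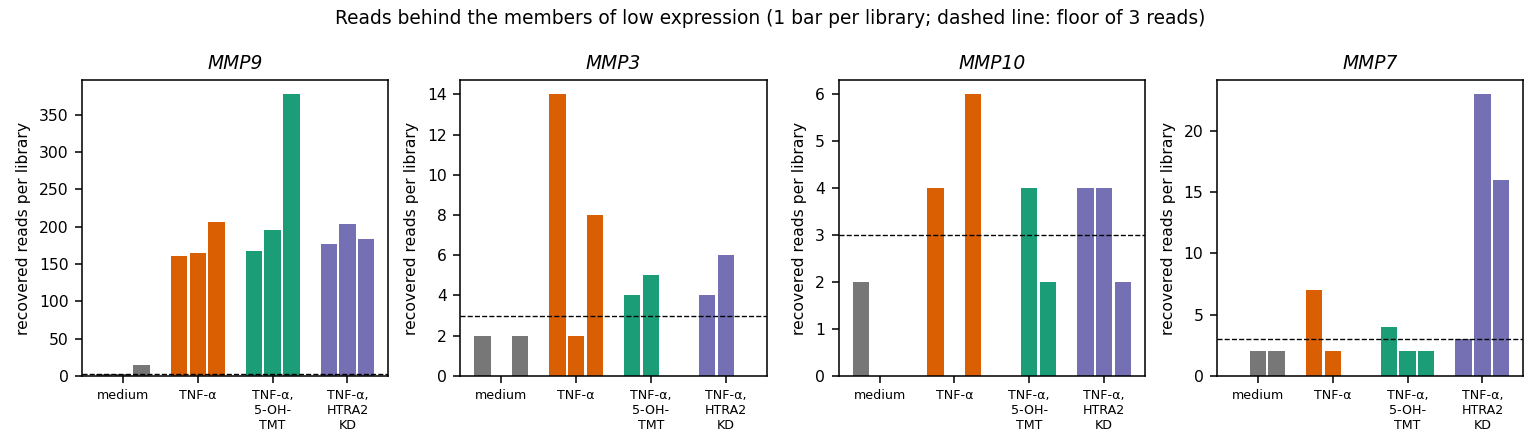
Recovered reads of MMP9, MMP3, MMP10 and MMP7 in each of the 12 libraries, 1 bar per library, with the dashed line at 3 reads and a vertical axis of its own in each panel. MMP9 rises from at most 14 reads in medium to at least 161 in every library with TNF-α, while MMP3 and MMP10 never exceed 14 and 6 reads, and MMP7 exceeds 7 reads only in replicates 2 and 3 of the knockdown (KD).

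Of the 10 members, 5 lie in a cluster on chromosome 11 between 102520508 and 102955734 (hg38), a stretch of 435.2 kb that holds 9 MMP genes in the order MMP7, MMP20, MMP27, MMP8, MMP10, MMP1, MMP3, MMP12 and MMP13. In these cells, 2 of the 9 had a mean FPKM of at least 0.1, MMP1 and MMP13, and they are not neighbours. MMP8 and MMP27 had 0 reads in every library, and MMP20 and MMP12 at most 4 and 6. MMP13, at one end of the cluster, rose in the knockdown, whereas MMP1, with MMP3 and MMP12 between them, did not pass the test.

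The rest of the family was examined through lists of genes, which were chosen with earlier results of these data known. Their counts beside the shares of all genes are therefore descriptive, here and for the lists further on. Of 15 other MMP genes, 5 passed the filter, 4 had 0 reads in all libraries (MMP8, MMP21, MMP26 and MMP27), and the other 6 (MMP12, MMP16, MMP19, MMP20, MMP23B and MMP25) reached at most 0.159 FPKM in a library. With TNF-α or 5-OH-TMT 0 of the 5 were called by limma, as by voom. Those with an unadjusted p under 0.05 were 1 (MMP11) and 2 (MMP11 and MMP15), a level at which all genes were not counted. In the knockdown 3 of 5 were higher and 0 lower (median 0.60, against -0.00 over all genes), where 9.35% of all genes were higher. MMP15, a membrane-type enzyme related to MMP14, was at 17.9, 14.3 and 18.2 FPKM in the knockdown and at 11.2, 10.6 and 13.0 FPKM with TNF-α alone (0.53 ± 0.13, adjusted p = 0.0137), and the call was lost without TNF-α replicate 2 or knockdown replicate 1 or 3 (highest adjusted p 0.0618). MMP17, a membrane enzyme held by a lipid anchor, was higher by 0.84 ± 0.18 (adjusted p = 0.00799) and MMP28, epilysin, by 0.62 ± 0.18 (adjusted p = 0.032). The call for MMP28 was lost in 7 of 16 alternatives, among them leaving out any 1 TNF-α library or knockdown replicate 1 (highest adjusted p 0.13). MMP11 and MMP24 had means of 0.646 and 0.321 FPKM in the knockdown and of 0.396 and 0.208 FPKM with TNF-α (adjusted p = 0.0875 and 0.24).

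Of 5 other inhibitors, 4 passed the filter, and 2 rose and 0 fell in the knockdown (9.35% of all genes were higher). TIMP3, which stays bound to the matrix, was the second most abundant inhibitor transcript, at 82.8, 81.8 and 83.4 FPKM in the knockdown and at 55.5, 60.7 and 59.7 FPKM with TNF-α alone (0.50 ± 0.06; limma, adjusted p = 0.000229). A2M, a plasma protein that traps proteases of many classes, was at 1.58, 1.35 and 1.70 FPKM in the knockdown and at 0.418, 0.387 and 0.227 FPKM with TNF-α alone (1.91 ± 0.24, adjusted p = 0.000274). TIMP4 had a mean of 10.3 FPKM in medium and 7.19 with TNF-α, 9.84 when 5-OH-TMT was added and 7.44 after knockdown, and none of its 3 differences passed (adjusted p = 0.116, 0.171 and 0.937). RECK, a membrane-anchored inhibitor, lay between 0.578 and 0.927 FPKM, and TFPI2 at or under 0.0622 FPKM. With TNF-α and with 5-OH-TMT 0 of the 4 were called by limma and 0 by voom. In each, 1 (TIMP4) had an unadjusted p under 0.05, a level at which all genes were not counted. TIMP4 with TNF-α was the 1 gene called in the fit to 6 libraries.

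**Figure D5:**
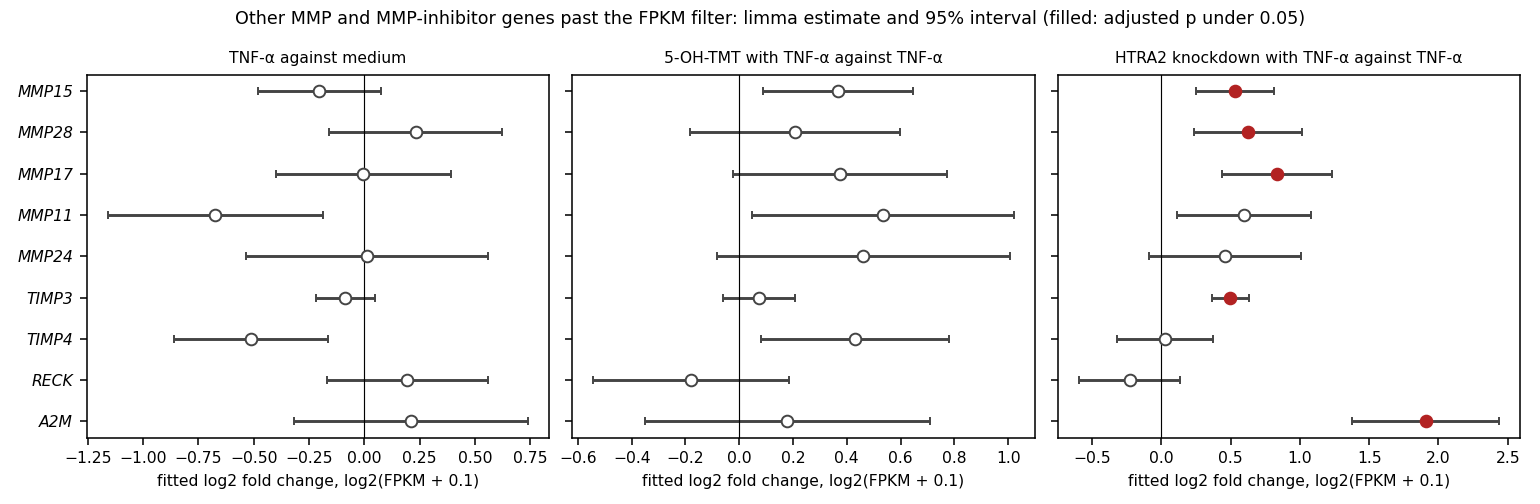
Fitted log2 fold change of log2(FPKM + 0.1) with its 95% interval for the 9 other MMP and inhibitor genes that passed the filter, in the 3 comparisons, each panel with its own horizontal axis. The filled points, with an adjusted p under 0.05, are MMP15, MMP28, MMP17, TIMP3 and A2M, all in the knockdown.

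Genes that activate MMPs or work with them were also counted. Of 13 listed, 12 passed the filter; 5 were higher and 0 lower with TNF-α, and 8 were higher and 0 lower in the knockdown (medians 0.02 and 0.43, against -0.00 over all genes in both). Of all genes, 3.22% were higher with TNF-α and 9.35% in the knockdown. In the fit to 6 libraries 2 of the 5 were called with TNF-α and 6 of the 8 in the knockdown, where voom called 9. PLAU, the urokinase that generates plasmin and so starts proMMP activation, had a mean of 12.6 FPKM in medium, 55.6 with TNF-α and 199 in the knockdown, a log2 change of 2.13 ± 0.11 in the first step and of 1.84 ± 0.11 in the second (limma, adjusted p = 3.36e-07 and 3.08e-06). Its receptor PLAUR rose by 1.12 ± 0.12 with TNF-α (adjusted p = 0.000115). LCN2, the lipocalin that binds MMP9 and protects it from breakdown, was at 200, 118 and 202 FPKM in the knockdown and at 19.6, 16.3 and 28.97 FPKM with TNF-α alone (3.00 ± 0.23, adjusted p = 1.42e-05). LCN2 thus rose in libraries in which MMP9 did not differ detectably.

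Of 24 matrix proteins that MMPs cut, 19 passed the filter. With TNF-α 4 were higher and 0 lower, and in the knockdown 16 were higher and 0 lower (medians 0.25 and 0.64). Of all genes, the same 3.22% and 9.35% were higher. With a filter of 1 FPKM, 601 and 1507 of 11185 genes were higher. With TNF-α, voom called 8, where 4.77% of all genes were called, and the fit to 6 libraries called 3, where 2.17% were. Those that rose by at least 1 on the log2 scale in the knockdown were FN1 (fibronectin), with a mean of 522 FPKM against 202 with TNF-α alone, COL1A1, COL4A5, COL5A1, COL7A1 and HSPG2 (perlecan), with changes from 1.04 to 1.36 and adjusted p from 3.6e-05 to 0.000564. Substrates and enzymes were thus both higher in the same libraries. COL1A1 is also a fibroblast marker, and the 8 fibroblast markers summed to 1.001 to 1.32 FPKM with TNF-α and to 2.63 to 3.24 FPKM in the knockdown, nearly all of it COL1A1, while DCN and THY1 had 0 reads in every library. The 4 endothelial markers summed to 1.43 to 1.57 FPKM with TNF-α and to 2.21 to 3.62 FPKM in the knockdown, mostly CDH5, which was already higher by 1.71 with TNF-α, and KDR had 0 reads. Of the leukocyte markers, summing to 0.273 to 0.752 FPKM in medium, 0.172 to 0.328 FPKM with TNF-α and 0.464 to 0.958 FPKM in the knockdown, CD14 was higher by 1.41 (adjusted p = 0.0163, a call lost in the fit to 6 libraries and without TNF-α replicate 2 or 3 or knockdown replicate 3) and PTPRC stayed at or under 0.0121 FPKM. The part of these markers in the rise of the members was not tested.

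Among 21 transcription factors that act on MMP promoters, 20 passed the filter; 8 were higher and 1 lower with TNF-α, and 3 were higher and 2 lower in the knockdown (medians 0.27 and 0.08). Of all genes, 4.1% were called with TNF-α and 17.4% in the knockdown, and the 5 of 20 factors called in the knockdown lie near that share. With TNF-α, the NF-κB subunits RELB, NFKB2 and NFKB1 rose by 4.18, 2.40 and 1.30, ETS1 by 1.57 and the AP-1 subunit FOSL1 by 1.08 (limma, adjusted p from 9.18e-09 to 0.00231). FOS, another AP-1 subunit, fell by 2.21 on the log2 scale, from a mean of 8.66 to 1.79 FPKM (adjusted p = 5.44e-07). Subunits of AP-1 thus moved in both directions with TNF-α. None of the factors on this list changed by 1 or more on the log2 scale in the knockdown. With 5-OH-TMT, limma called 0 genes of these 3 lists, where 0.0387% of all genes were called. An unadjusted p under 0.05 was reached by 4 of 12 activators, 5 of 19 substrates and 8 of 20 factors, a level at which all genes were not counted. The numbers called by voom were 0, 1 and 3, where 1.31% of all genes were called.

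Over the 12 libraries, MMP2 and MMP14 tracked each other closely (Pearson r = 0.985 of log2 levels), and both tracked TIMP2 (0.926 and 0.931). MMP1 was least like the others (r from 0.2 to 0.41). These values describe 4 groups of 3 libraries and carry no test. Among 11178 other genes with a mean of at least 1 FPKM, those most like MMP14 were CERCAM, GSN and LGALS3BP (r from 0.988 to 0.991), and those most like MMP2 were LGALS3BP, PROM2 and DAB2IP (0.983 to 0.988). LGALS3BP, a secreted glycoprotein, was on both lists. MMP9 was most like SERPINB2, TMEM156 and IL1A (0.977 to 0.979), MMP13 like CPEB2, SERTAD4 and APOL6 (0.968 to 0.974), TIMP1 like GTPBP2, TNKS1BP1 and PTK2B (0.985 to 0.988), TIMP2 like IFI6, SLC2A3 and TTC9 (0.959 to 0.972), and MMP1 like RMDN3, PUS3 and ZNF654 (0.819 to 0.889).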

How the data were processed

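Poly(A) RNA of NCM460 cells was sequenced after an NEBNext Ultra library preparation, which does not mark strand, in 12 libraries. The authors deposited their FPKM for each library in 1 table, which also lists gene lengths. The submitters' processing notes name CASAVA 1.8, HISAT2 2.0.4, HTSeq 0.9.1 and hg38; parameters and the scaling of the FPKM were not given in the sources used here. Gene identifiers and coordinates were identical to GENCODE 29 for 100% of 58735 genes.

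The deposited FPKM, multiplied by gene length and divided by the step of the library, gave whole reads for 100% of values (within 0.02 of a whole number). These reads summed to 0.949 to 1.03 times the divisor implied. With limma 3.58.1 (R 4.3.3), log2(FPKM + 0.1) was modelled by a mean for each group (8 residual degrees of freedom, eBayes with a trend). The 18079 genes whose FPKM averaged 0.1 or more entered. Fold changes on this scale understate those of low genes. Contrasts were two-sided with Benjamini-Hochberg adjustment over all genes tested, called at an adjusted p under 0.05, and beside it at the study's own rule of a fold of at least 2 with p of at most 0.05. Members under the filter came from a fit of 31951 genes with an FPKM above 0 in any library. Single members were also compared by exact two-sided permutation of 3 libraries against 3 (scipy 1.17.1). Read ratios have exact binomial 95% intervals, which take reads as independent and are too narrow where they are not. The fit was tested on simulated data. Alternatives were other pseudocounts, filters and scalings, voom on the recovered reads, eBayes with no trend, a block for replicate number, a fit restricted to the compared groups and leaving out each library. The members and lists were chosen with earlier results of these data known. Named are all members, the genes of the lists of other MMPs and inhibitors, those of the other lists with an adjusted p under 0.05 and a log2 fold change of at least 1 in size, HTRA2, and per member tested the 3 genes with the highest Pearson correlation. Marker genes, the genes on the cluster and antisense partners are named beside the values they bear on. Promoters are RefSeq's on GRCh38.p14.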

Additional observations from a re-analysis of the deposited data

How the results depend on the processing

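With TNF-α, the count of 1 member called was the same in 15 of 16 alternatives, and 1 to 2 members were called when a library was left out, MMP13 being added without medium replicate 3. With 5-OH-TMT, the count of 0 became 2 (TIMP1 and MMP14) in the fit to only the 2 groups compared and 1 (MMP14) with voom on the recovered reads, and stayed at 0 in the other 14; the cause was not tested. With voom 236 of 18079 genes were called there, with only the 2 groups compared 911, with a filter of 1 FPKM 127 of 11185, and 7 as reported, of which 6 were higher, against 4 of 4 under quantile normalization. The other settings gave 1 to 8. With TNF-α 392 genes were called with only the 2 groups against 742, and in the knockdown 2015 without knockdown replicate 1 and 2062 without TNF-α replicate 2 against 3152. In the knockdown 5 members were called in all 16 alternatives. Of the genes of the lists other than markers, 0 were called with 5-OH-TMT, 3 with a filter of 1 FPKM, 5 with only the 2 groups compared and 4 with voom. The 11 comparisons of single members at the smallest exact p became 11 to 12 under other pseudocounts and scaling.

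Libraries with the same replicate number did not deviate together (correlation of deviations from the group means -0.052 to 0.0382 over 9 pairs, where pairing would need more than 0.1), so the numbers were not used as pairs. With the replicate block 1, 0 and 5 members were called in the 3 comparisons, as without it, and 600, 1 and 2660 genes against 742, 7 and 3152.

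Sign changes were limited to differences that did not pass the test. MMP2 with TNF-α was 0.02 as reported, -0.0136 under quantile normalization and -0.0358 to 0.0862 with a library left out, TIMP2 with TNF-α -0.0317 to 0.0263, MMP7 with TNF-α -0.0509 to 0.38. With 5-OH-TMT, MMP7 was -0.01 as reported, 0.33 with a pseudocount of 0.01, 0.47 with voom and -0.21 to 0.22 with a library left out, and MMP10 -0.45 to 0.022. In the knockdown, MMP1 was -0.0146 under quantile normalization and -0.0959 to 0.23 with a library left out, MMP9 -0.054 to 0.10, and MMP10 -0.0551 under quantile normalization and -0.22 to 0.25. No rescaling moved the median of all genes by more than 0.0379 on the log2 scale. Depth limits MMP3, MMP7 and MMP10, which had at most 3 reads in 6, 8 and 7 of the 12 libraries.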
